A study of Mus musculus with 6 samples.

Results

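Cftr and 8 other genes of epithelial chloride transport were followed in nephron progenitors with and without the miR-17~92 microRNA cluster. The 9 genes are Cftr, Slc12a2, Slc12a4, Slc12a7, Clcn3, Clcn5, Ano1, Ano6 and Slc26a6. They were taken by symbol from the 27179 entries of the deposited table, and all 9 were found. Cftr leads the set because its level in mutants was already known to differ from that in controls. The other 8 were listed by gene family with results of these data known, so the levels and differences of all 9 are given as a description, with no p. Calls of the 9 in fits over all genes are given later for completeness, and nothing is read from them. All 9 also passed the expression filter, which asked for 0.5 RPKM or more averaged over all 6 libraries and left 13463 genes in all. RPKM is a gene's number of reads scaled by its length and by the depth of the library.

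Progenitors were sorted from mouse kidneys at E16.5 (embryonic day) by the green fluorescence of the Six2TGC transgene. Mutant progenitors were Six2TGC;miR-17~92fl/fl, with the Six2TGC transgene and floxed copies of the cluster. Control progenitors carried the Six2TGC transgene, and their labels name no floxed copies. There were 3 mutant and 3 control libraries, each a pool from 4 embryos. Strain and the sex of the embryos are not given, so a difference between genotypes and a difference in background cannot be told apart. Library depth, worked out from the deposited values, was 27602025 to 30264067 reads in mutants and 28117790 to 36134381 reads in controls. At the targeted locus Mir17, the leading microRNA of the cluster, had 2, 0 and 0 reads in the mutant libraries, against 31, 26 and 16 reads in the control libraries. The annotated host transcript Mir17hg was higher in mutants, at 259, 183 and 194 RPKM, against 45.4, 33.6 and 52.9 RPKM in controls. Its annotated range, 115044390 to 115046728, starts at the far end of the cluster and reaches beyond it, so it does not check the deletion. The other microRNAs of the cluster had 0 reads in mutants and at most 4 in any control library. Mir92-1 had 0 reads in all libraries. Six2, which marks the sorted cells, was at 63.5, 57.0 and 77.0 RPKM in mutants, against 83.5, 69.9 and 104 RPKM in controls.

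Epithelia move chloride in steps. Cotransporters driven by the sodium gradient load chloride into the cell, channels such as Cftr and Ano1 let it leave at the apical membrane, and water follows. Cftr is an ATP-gated channel of the ABC transporter family that protein kinase A opens, and its loss causes cystic fibrosis. In the kidney it is known from tubules and from the fluid secretion of cysts. A microRNA lowers the output of messenger RNAs that pair with its seed, bases 2 to 8 of the mature strand, and the best studied sites lie in 3' UTRs.

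The mature strands of the deleted cluster are shown because their seeds define which letters were searched for in the 9 genes. They are RefSeq sequences on the plus strand of chromosome 14 (GRCm38.p6), 5′ to 3′, with the seed in capitals.
miR-17-5p: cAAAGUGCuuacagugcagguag
miR-20a-5p: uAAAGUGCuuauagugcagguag
miR-18a-5p: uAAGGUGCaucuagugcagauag
miR-19a-3p: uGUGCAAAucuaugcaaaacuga
miR-19b-3p: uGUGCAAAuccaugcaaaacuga
miR-92a-3p: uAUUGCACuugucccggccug
The strands miR-17-5p and miR-20a-5p share a seed, and so do miR-19a-3p and miR-19b-3p. The letters searched, on the transcript strand only, were the 7 that pair with each seed. These are GCACTTT for miR-17 and miR-20a. For miR-18a they are GCACCTT. For both miR-19 strands they are TTTGCAC. For miR-92a they are GTGCAAT. Each was counted alone or followed by A, and its last 6 letters were counted where A follows them. Matches of the miR-17 and miR-19 families can overlap each other.

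The 3' UTR of Cftr, 1735 bases in the longest annotated form, held none of these letters. Among 2030 tested genes with a 3' UTR of similar length, 60.7% held at least 1 match. Before the 3' UTR the Cftr transcript held 3 matches, all to the miR-19 seed and all in the coding sequence. Of 761 tested genes with a similar length before the 3' UTR, 74.1% held at least 1 match to any of the seeds. The 3 stretches are shown with the matching letters in capitals, on the plus strand of mm10.
Cftr at chr6:18274696-18274723: acagcatcaaaaatTTTGCACAggaaaa
Cftr at chr6:18282522-18282549: cacaaagctctgaaTTTGCACActgcca
Cftr at chr6:18319707-18319733: caagccttcgctggTTGCACAgtcatc
Slc12a7 stood at the other end, with 6 matches in a 3' UTR of 1820 bases, 3 to the miR-17 seed and 3 to the miR-19 seed. The 2 with all 8 letters are shown, also on the plus strand.
Slc12a7 at chr13:73815888-73815915: tctcagcatacagcTTTGCACAtgaaat
Slc12a7 at chr13:73816079-73816106: ctgacagatgatttGCACTTTAcccttg
Ano6 had 2 matches in its 3' UTR, and the one to the miR-17 seed lay just after the stop codon, at bases 24 to 31. Ano1 had 2, both to the miR-19 seed. An 8-letter match of each gene is shown, Ano6 on the plus strand and Ano1 on the minus strand.
Ano6 at chr15:95972711-95972738: ttaggcctggagaaGCACTTTAaagaga
Ano1 at chr7:144589806-144589833: tgtttcttctcattTTTGCACAaggcca
Clcn5 had 2 matches, Clcn3 and Slc12a2 had 1 each, and Slc12a4 and Slc26a6 had none in the annotated 3' UTR. The 3' UTRs of Slc12a4 and Slc26a6 were short, at 492 and 266 bases. Among tested genes with 3' UTRs of similar length 20.8% and 10.8% held a match. The form of Slc26a6 searched had only 152 bases before its 3' UTR, so it is a fragment, and its lack of matches says little. Over 11573 tested genes with an annotated 3' UTR, 47.5% held at least 1 match. A match of letters is a description of the sequence and does not show that a microRNA binds there.

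Cftr (Entrez Gene 12638; chromosome 6, 18170687 to 18322770 in mm10) stood at 9.17, 8.20 and 8.72 RPKM in the mutant libraries, against 1.95, 1.89 and 2.10 RPKM in the control libraries. The lowest mutant library was far above the highest control library, and libraries of 1 genotype lay close together. The mean was 8.70 ± 0.482 RPKM in mutants and 1.98 ± 0.112 RPKM in controls (SD, n = 3 each), a ratio of 4.39. These levels rest on 1749, 1437 and 1518 reads in mutants and 362, 430 and 373 reads in controls. As summed read rates the ratio was 4.42, with an exact 95% binomial interval of 4.14 to 4.72 that covers counting error only. On the log2(RPKM + 0.5) scale, which understates changes of low genes, mutants were higher by 1.89 with a standard error of 0.15. That was the 18th largest rise of the 13463 tested genes (rank 18). The median tested gene was at -0.125, so relative to it Cftr was higher by 2.02. Cftr was above 60.1% of tested genes in mutants and above 22.9% in controls. Since whole pools were measured, more cells with Cftr RNA and more Cftr RNA per cell cannot be told apart. The reads give 1 value for the gene and do not separate its annotated transcripts. Of the 31-base words of Cftr, 1.32% are also in another gene, most of them in Gm15592, on the opposite strand.

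**Figure D1:**
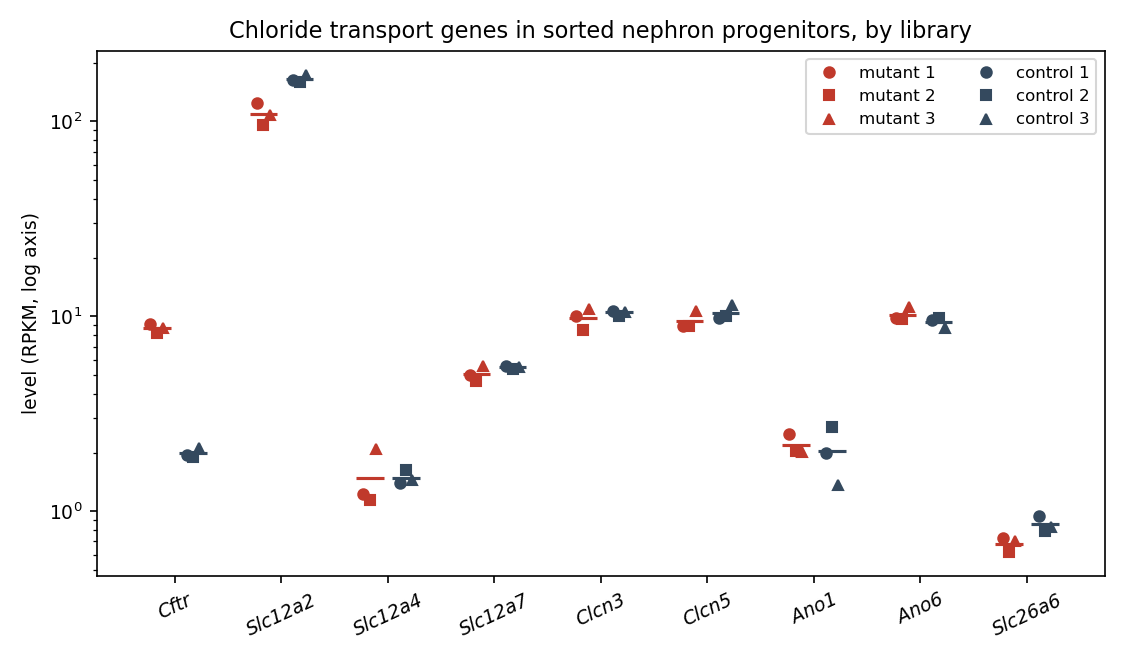
Level in RPKM (log axis) of each of the 9 genes in each mutant (red, left) and control (dark, right) library; markers stand for replicates and lines for group means. Cftr lies between 8.20 and 9.17 RPKM in mutants and between 1.89 and 2.10 RPKM in controls, while the groups of 6 of the 9 genes overlap.

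The cotransporter that loads chloride did not share the direction of Cftr. Slc12a2 (Entrez Gene 20496; chromosome 18, 57878512 to 57946821), which encodes NKCC1, the basolateral carrier of sodium, potassium and chloride, stood at 124, 95.6 and 108 RPKM in mutants. The control libraries were at 163, 159 and 174 RPKM. All mutant libraries lay below all control libraries, and mutants spread more widely. The mean was 109 ± 14.3 RPKM in mutants and 165 ± 7.48 RPKM in controls (SD, n = 3 each), a log2 difference of -0.60 with a standard error of 0.14. Against the median of all tested genes the difference was -0.48.

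Slc12a7 and Slc12a4 encode KCC4 and KCC1, which carry potassium and chloride out of the cell together. Slc12a7 (Entrez Gene 20499; chromosome 13, 73733052 to 73816754), the gene with most seed matches, stood at 4.99, 4.64 and 5.55 RPKM in mutants. Its control values of 5.59, 5.35 and 5.49 RPKM overlapped with these. The log2 difference of Slc12a7 was -0.11 with a standard error of 0.14, next to the median of all genes. Slc12a4 (Entrez Gene 20498; chromosome 8, 105943590 to 105966149) stood at 1.22, 1.14 and 2.09 RPKM in mutants, against 1.39, 1.63 and 1.44 RPKM in controls. For Slc12a4 both the lowest and the highest library were mutants, and the log2 difference was -0.03 with a standard error of 0.21. Mutant replicate 3 set its mutant spread: without that library the difference was -0.24.

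Clcn3 and Clcn5 encode exchangers of chloride for protons in endosomes, and loss of the human gene CLCN5 causes Dent disease, a disorder of the proximal tubule. Clcn3 (Entrez Gene 12725; chromosome 8, 60910389 to 60983317) stood at 10.1, 8.56 and 10.9 RPKM in mutants, against 10.7, 10.1 and 10.5 RPKM in controls. Clcn5 (Entrez Gene 12728; chromosome X, 7153810 to 7319358) stood at 8.88, 8.90 and 10.6 RPKM in mutants, against 9.76, 9.99 and 11.4 RPKM in controls. Groups overlapped in both genes. Their log2 differences were -0.09 and -0.13, each with a standard error of 0.14, and so close to the median of all tested genes.

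Ano1 encodes TMEM16A, a chloride channel that calcium opens, and Ano6 encodes TMEM16F, which moves phospholipids across the membrane and conducts ions. Ano1 (Entrez Gene 101772; chromosome 7, 144588549 to 144752026) stood at 2.48, 2.04 and 2.02 RPKM in mutants. Its controls, at 2.00, 2.72 and 1.36 RPKM, spanned the mutant values. The log2 difference of Ano1 was 0.12 with a standard error of 0.21, and it was -0.09 without control replicate 3. Ano6 (Entrez Gene 105722; chromosome 15, 95790843 to 95975472) stood at 9.76, 9.66 and 11.2 RPKM in mutants, against 9.54, 9.78 and 8.69 RPKM in controls. Its groups overlapped, with a log2 difference of 0.12 and a standard error of 0.14. Annotated long non-coding genes overlap the ranges of Ano1 and Ano6, and without a stated strand setting their reads cannot be told apart.

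Slc26a6 (Entrez Gene 171429; chromosome 9, 108854043 to 108913049) encodes an apical exchanger of chloride for oxalate, bicarbonate and other anions. It had the lowest level of the 9 genes, at 0.725, 0.618 and 0.703 RPKM in mutants, against 0.95, 0.792 and 0.826 RPKM in controls. All mutant libraries lay below all control libraries, on 69, 54 and 61 reads in mutants and 88, 90 and 73 reads in controls. The log2 difference was -0.20 with a standard error of 0.19, a size close to its error.

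Over the set, mutants lay above controls without overlap in 1 gene, Cftr, and below controls without overlap in 2, Slc12a2 and Slc26a6. Of all tested genes 25.1% did not overlap, 7.06% with mutants above and 18.0% with mutants below. In the fit over all genes (limma, Benjamini-Hochberg adjusted p under 0.05) 1 of the 9 was called higher and 1 lower, Cftr and Slc12a2, where 3.13% of all tested genes were called, 1.32% higher and 1.81% lower. With voom, a fit to the recovered reads, both were called as well, where 2.18% of all tested genes were higher and 2.92% lower. With median-of-ratios scaling Cftr was called and Slc12a2 was not, where 1.95% were higher and 1.27% lower. The set was chosen on this contrast, so nothing is read from these counts. Slc12a2 was not called with any of the 3 rescalings of the libraries or without mutant replicate 2, mutant replicate 3 or control replicate 1, among others. The median log2 difference of the 8 genes other than Cftr was -0.10, and their range was -0.60 to 0.12.

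**Figure D2:**
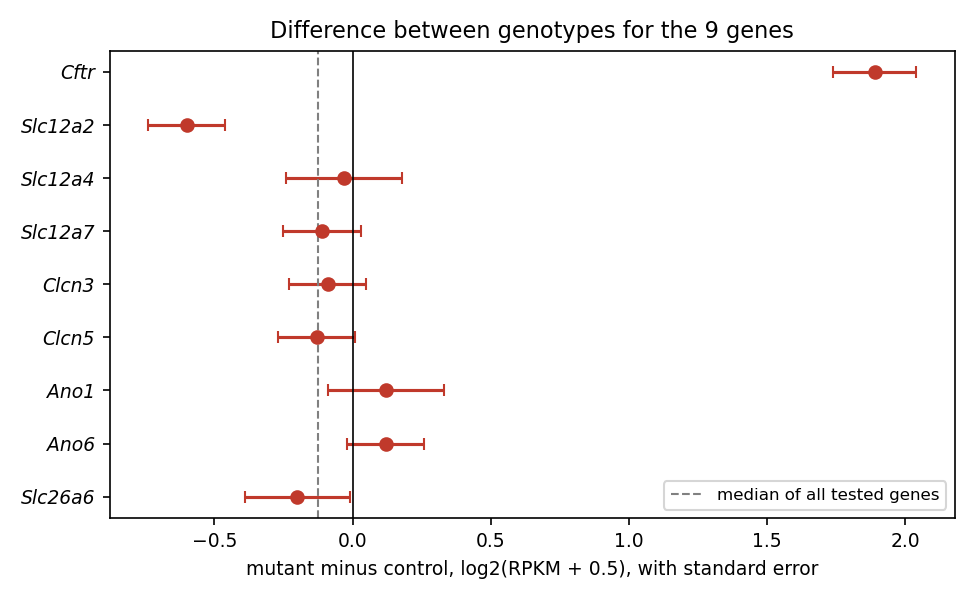
Difference between mutant and control for each of the 9 genes on the log2(RPKM + 0.5) scale (x axis); points are fitted differences and bars standard errors, n = 3 libraries per genotype. Cftr stands at 1.89 and Slc12a2 at -0.60, while the other 7 lie between -0.20 and 0.12, around the dashed median of all tested genes at -0.125.

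Ordered by level, which RPKM allows between genes because it is per length, Slc12a2 was the highest of the 9 in both genotypes. In mutants it was followed by Ano6 (10.2 ± 0.885 RPKM), Clcn3 (9.86 ± 1.20), Clcn5 (9.45 ± 0.973) and Cftr (8.70 ± 0.482; SD, n = 3), and neighbours among these 4 overlapped. Slc12a7, next in mutants at 5.06 ± 0.457 RPKM, did not overlap with Cftr. In controls Clcn3, Clcn5 and Ano6 followed Slc12a2, then Slc12a7, and Cftr stood lower, beside Ano1 (2.03 ± 0.682 RPKM), with which it overlapped. Thus Cftr was placed 5 of 9 in mutants and 7 of 9 in controls. Slc12a2 exceeded Cftr 13.5, 11.7 and 12.4 times in the mutant libraries, against 83.9, 84.3 and 82.5 times in the control libraries. Leaving out Slc12a2, Cftr made up 19.4%, 18.7% and 16.8% of the summed RPKM of the other 8 genes in mutants, against 4.65%, 4.46% and 5.03% in controls. These ratios are taken within a library and do not depend on how libraries are scaled to each other.

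The wider machinery of chloride transport was described with 7 lists holding 149 other genes, 93 of which passed the filter. In limma 5 rose, 1 fell and 87 did not pass, and 3.13% of all tested genes were called. The lists were chosen with results of these data known, and 2 of the 5 that rose, Slc12a1 and Kcnj16, reached the filter only through their mutant values. The share called in the lists is therefore not set against that of all genes. The median log2 difference of the 93 genes was -0.10, beside -0.125 for all tested genes. At an unadjusted p under 0.05 stood 23 of the 93, beside 19.6% of all tested genes. With no filter on low values none of the 6 passed (limma adjusted p 0.0522 to 0.102 for Slc12a1, Slc26a7, Dab2, Adcy6 and Atp1b1, and 0.117 for Kcnj16).

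Among chloride cotransporters and exchangers, 2 of 11 tested genes rose in limma, where 1.32% of all tested genes did. Since 1 of the 2 reached the filter only through its mutant values, these shares are not compared. Slc12a1 encodes NKCC2, the cotransporter of the thick ascending limb. It stood at 3.19, 1.96 and 8.28 RPKM in mutants, against 0.114, 0.233 and 0.630 RPKM in controls (log2 difference 2.43, SE 0.39, limma adjusted p 0.00561). Slc12a1 thus differed several-fold between mutant pools, unlike Cftr. The control mean of Slc12a1, 0.326 RPKM, was under the filter. It was tested only through its mutant values, so its p is a description only. Slc26a7, an anion exchanger and channel of the same family as Slc26a6, stood at 6.17, 3.60 and 4.90 RPKM in mutants, against 2.48, 1.81 and 1.69 RPKM in controls. The log2 difference of Slc26a7 was 1.10, SE 0.21 (limma adjusted p 0.0146; 0.0868 without mutant replicate 1 and 0.0564 without mutant replicate 3). Groups did not overlap in either gene, and both were also called by voom on recovered reads.

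Over all tested genes 3.13% passed in limma, 19.6% had an unadjusted limma p under 0.05, and voom called 2.18% higher and 2.92% lower. Of the other chloride channels 0 of 19 tested genes passed in limma, with 2 at an unadjusted p under 0.05 and 0 by voom. The 3 of lowest p were Ano3 (log2 difference 0.65, adjusted p 0.158), Ttyh3 (-0.42, 0.198) and Clic1 (-0.48, 0.292). Kinases and regulators of the WNK-SPAK pathway, which switches cotransporters on and off, gave 0 of 11 in limma, 2 at an unadjusted p under 0.05 and 0 by voom. There Wnk4 (-0.41, limma adjusted p 0.220), Wnk2 (-0.49, 0.229) and Oxsr1 (-0.26, 0.296) had the lowest p. Clic1 was lower and called without control replicate 1 (limma adjusted p 0.0297). With so few genes in each list, nothing is read from these counts.

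Genes that traffic, fold or regulate the Cftr protein gave 1 higher and 1 lower of 35 tested. Adcy6, an adenylyl cyclase that makes the cyclic AMP acting on protein kinase A, fell to 6.39, 4.69 and 6.49 RPKM in mutants, against 9.53, 11.8 and 11.2 RPKM in controls (log2 difference -0.84, SE 0.16, limma adjusted p 0.0156; 0.0895 without mutant replicate 2). Dab2, an endocytic adaptor, rose to 13.7, 15.4 and 17.5 RPKM in mutants, against 9.72, 10.9 and 9.43 RPKM in controls (0.61, SE 0.14, limma adjusted p 0.0398). The call of Dab2 was lost without any 1 mutant library (limma adjusted p 0.0689 to 0.155) or without control replicate 1 (0.160). Of this list 11 genes had an unadjusted p under 0.05 in limma, beside 19.6% of all tested genes. With voom 5 were called, beside 2.18% of all tested genes higher and 2.92% lower. Mutants lay below controls without overlap in 10 of the 35 and above in 3, beside 18.0% and 7.06% of all tested genes. The median log2 difference was -0.22, beside -0.125 for all tested genes. The list was chosen with results of these data known, so nothing is read from these counts.

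Factors that act on the Cftr gene in other tissues gave 0 of 5 tested genes in limma, 2 at an unadjusted p under 0.05 and 0 by voom, and Cdx2 was at 0 in all 6 libraries. The shares over all tested genes were 3.13% in limma, 19.6% at an unadjusted limma p under 0.05, and 2.18% higher and 2.92% lower by voom. Yy1 (-0.36, limma adjusted p 0.188) and Nfe2l2 (0.24, 0.290) did not pass. ABCC genes, the closest relatives of Cftr by family, gave 0 of 5 in limma, 1 at an unadjusted p under 0.05 and 1 by voom, Abcc9. Abcc9, a subunit of potassium channels, was at 1.60, 2.29 and 1.61 RPKM in mutants, against 1.01, 1.08 and 0.887 RPKM in controls (log2 difference 0.63, limma adjusted p 0.111; 0.0181 with voom). Abcc4 (0.27, limma adjusted p 0.430) and Abcc1 (-0.12, 0.667) did not pass. With so few genes in both lists, nothing is read from these counts.

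Of 7 tested cation and water partners of epithelial chloride transport, 2 rose in limma, where 1.32% of all tested genes did. Since 1 of the 2 reached the filter only through its mutant values, these shares are not compared. Atp1b1, the beta subunit of the sodium pump that sets up the gradient, stood at 12.3, 14.8 and 21.0 RPKM in mutants, against 6.46, 7.24 and 5.87 RPKM in controls (log2 difference 1.21, SE 0.19, limma adjusted p 0.00417). Of the 31-base words of Atp1b1, 16.93% are also in another gene, most of them in Nme7 on the opposite strand, so its reads may be mixed. Kcnj16, a potassium channel subunit of tubule epithelium, stood at 1.00, 1.45 and 3.07 RPKM in mutants, against 0.237, 0.248 and 0.390 RPKM in controls (1.47, SE 0.29, limma adjusted p 0.0186). Its call was lost without mutant replicate 2 (0.107) or mutant replicate 3 (limma adjusted p 0.0503). The control mean of Kcnj16, 0.292 RPKM, was under the filter. Kcnj16 was tested only through its mutant values, so its p is a description only. In both genes mutant replicate 3 was the highest library, as it was for Slc12a1.

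**Figure D3:**
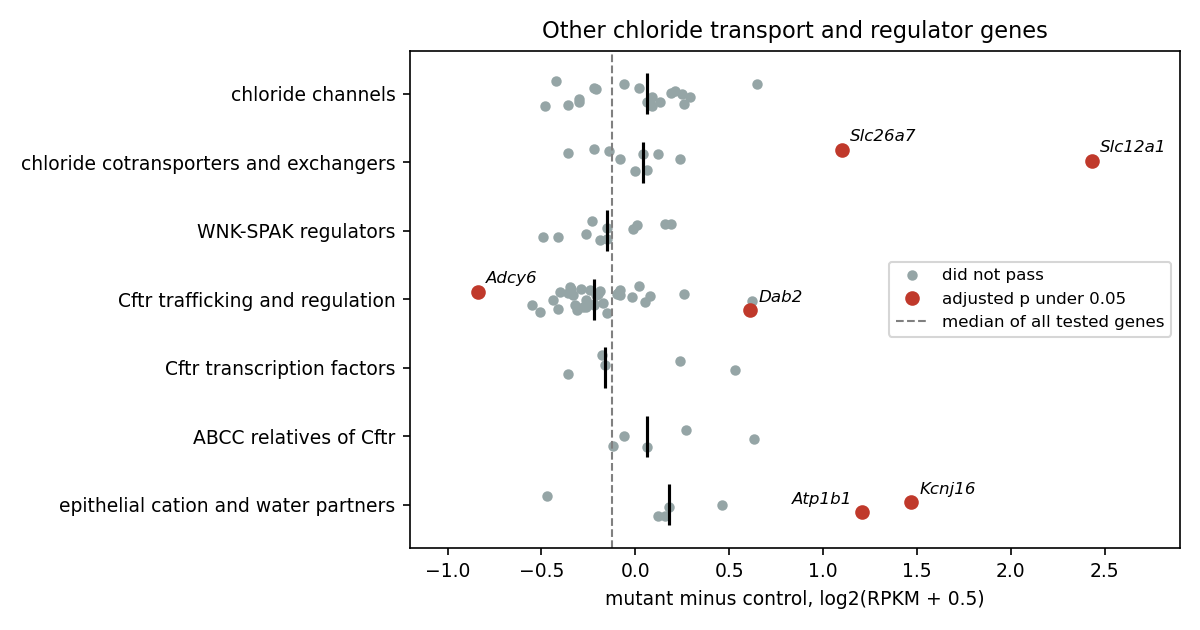
Difference between mutant and control on the log2(RPKM + 0.5) scale (x axis) for the 93 tested genes of 7 lists (rows); red points passed in limma, grey points did not, black bars are list medians and the dashed line is the median of all tested genes. The 5 red points on the right are Slc12a1, Slc26a7, Dab2, Atp1b1 and Kcnj16, and the red point on the left is Adcy6.

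Genes next to Cftr on chromosome 6 were compared in the same way, 5 tested genes on each side. In limma 1 of the 10 rose and 1 fell. Cttnbp2, the nearest tested gene at 43.7 kb, which encodes a cortactin-binding protein, stood at 3.21, 3.50 and 3.92 RPKM in mutants, against 2.23, 1.31 and 1.54 RPKM in controls. The log2 difference of Cttnbp2 was 0.90, SE 0.19 (limma adjusted p 0.0288; 0.0842 to 0.137 without any 1 mutant library). Met, the receptor of hepatocyte growth factor, 597 kb away, fell to 14.3, 11.5 and 14.4 RPKM in mutants, against 22.8, 19.9 and 18.9 RPKM in controls (-0.60, SE 0.14, limma adjusted p 0.0441; up to 0.218 without 1 library). St7, at 228 kb on the other side from Cttnbp2, had a log2 difference of 0.02. Between the nearest tested genes lay Wnt2 and Asz1, which were below the filter, with no library above 0.192 RPKM. Of 630 other tested genes on chromosome 6, 4.13% were called, against 3.13% of all tested genes.

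**Figure D4:**
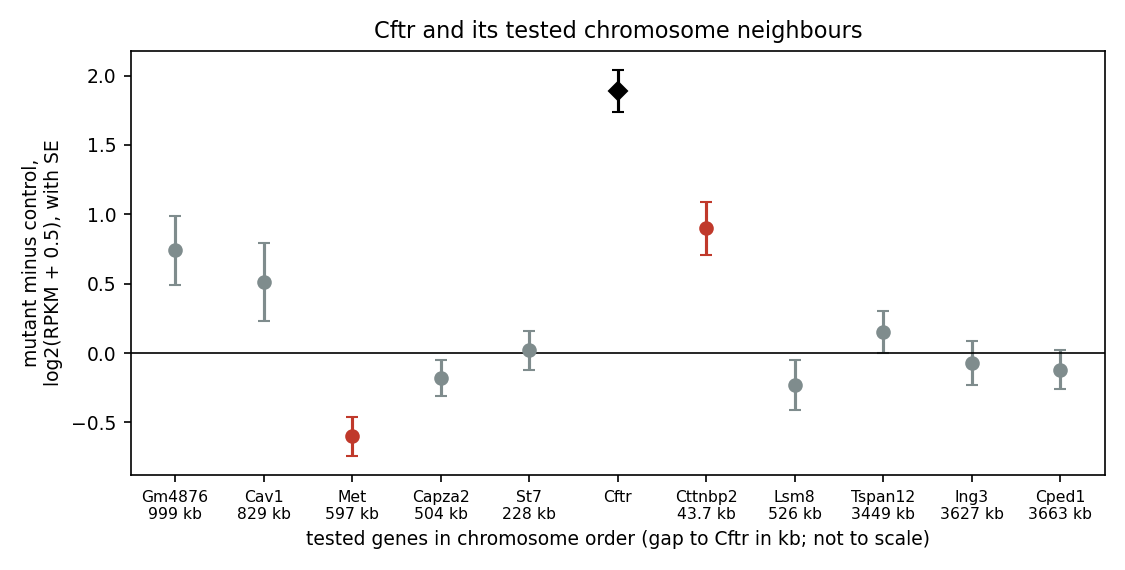
Difference between mutant and control on the log2(RPKM + 0.5) scale (y axis, with standard errors) for Cftr (black) and the 5 tested genes on each side of it, in chromosome order with the gap in kb. Cftr stands at 1.89, Cttnbp2 at 0.90 and Met at -0.60, and the other 8 (grey) did not pass in limma.

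The genes whose values over the 6 libraries were most like those of Cftr were sought among 13462 others by Pearson correlation of log2(RPKM + 0.5). Since the libraries fall into the 2 genotypes, a high r mainly says that a gene is even within each genotype and higher in mutants. The 10 nearest were Rpl29, Fcer1g, Gpr137b-ps, Tdg, Acp1, Sulf1, Slfn9, Scd1, Mir135a-2 and Tgfb2, with r between 0.989 and 0.998. None is a chloride transport gene of the lists. Fcer1g, which encodes an Fc receptor chain of leukocytes, was at 2.41, 2.30 and 2.53 RPKM in mutants, against 0.773, 0.715 and 0.703 RPKM in controls. Sulf1, an extracellular sulfatase acting on heparan sulfate, was at 11.4, 9.68 and 10.8 RPKM in mutants, against 5.50, 5.60 and 5.89 RPKM in controls. Levels of Rpl29, Gpr137b-ps, Tdg, Acp1 and Slfn9 are uncertain, since 24.55% to 47.97% of their 31-base words are also in another gene.

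Markers of other cells that the sort could hold were set beside Cftr. Of all tested genes 1.32% were called higher and 1.81% lower in limma, and 19.6% had an unadjusted p under 0.05. Macrophage and leukocyte genes, 6 of 12 tested, gave 3 higher in limma (Fcer1g, Ctss and Tyrobp), and their summed level was 16.4 to 17.5 RPKM in mutants and 5.94 to 10 RPKM in controls. Of the 6, 3 passed the filter only through their mutant values. Ctss and Tyrobp were among these, with control means of 0.208 and 0.433 RPKM, so their calls are a description only. Tyrobp (limma adjusted p 0.0491) was not called in 10 alternatives, among them without any 1 mutant library (0.129 to 0.236). Nephron tubule genes, 5 of 12 tested, gave 1 higher (Slc12a1), with a sum of 12.5 to 26.7 RPKM in mutants and 10.3 to 11.6 RPKM in controls. Here too 2 of the 5, Slc12a1 among them, passed the filter only through their mutant values. Mutant replicate 3 was the highest for tubule genes, at 26.7 RPKM, and lay between the other mutants for Cftr. Renal vesicle genes gave 1 of 10 higher (Cdh6, limma adjusted p 0.0146, 0.0776 without mutant replicate 1 and 0.0576 without mutant replicate 3; sum 109 to 141 RPKM in mutants and 102 to 123 RPKM in controls). Ureteric bud and collecting duct genes gave 0 of 6 in limma, 2 at an unadjusted p under 0.05 and 1 by voom, with a sum of 22.8 to 34.3 RPKM in mutants and 26.4 to 31.1 RPKM in controls. Again 2 of the 6, Cdh1 among them, passed the filter only through their mutant values. Cdh1 was at 0.397, 0.710 and 1.08 RPKM in mutants, against 0.307, 0.433 and 0.105 RPKM in controls. Nephron progenitor genes gave 1 of 10 lower (Meox1, limma adjusted p 0.00271), with a sum of 534 to 654 RPKM in mutants and 717 to 770 RPKM in controls. Interstitium, podocyte, endothelium and erythroid genes gave 0 of 11, 0 of 5, 0 of 3 and 0 of 4 in limma, 0 each by voom, and 4, 2, 0 and 0 at an unadjusted p under 0.05. Their sums overlapped between genotypes. The interstitium genes had a median log2 difference of 0.59, with 10 of 11 above the median of all tested genes and the libraries of both genotypes overlapping in each gene. Among the 5 podocyte genes, 1 passed the filter only through its mutant values. The median log2 difference was 0.28 for podocyte, -0.08 for endothelium and 0.23 for erythroid genes. It was 0.31 for renal vesicle, 0.58 for tubule, 0.32 for ureteric bud and collecting duct, and -0.31 for progenitor genes. Of these 9 of 10, 4 of 5, 4 of 6 and 3 of 10 lay above the median of all tested genes. All 6 macrophage genes lay above it, each with an unadjusted limma p under 0.05. Such a p was found for 3 renal vesicle, 2 tubule and 5 progenitor genes. The macrophage, tubule, ureteric bud and podocyte lists hold genes that passed the filter only through their mutant values. For those genes the filter favoured higher mutant values, so nothing is read from the medians and counts of these lists. Without overlap, mutants lay above controls in 3 renal vesicle, 4 macrophage, 2 tubule, 1 ureteric bud and 1 podocyte gene. They lay below in 4 progenitor and 2 podocyte genes, and no other tested marker gene was without overlap. Over all tested genes 7.06% lay above and 18.0% below. The filter bears on the macrophage, tubule, ureteric bud and podocyte counts here too. No marker gene found in the table was at 0 in all 6 libraries. The part of these cells in the level of Cftr was not tested.

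**Figure D5:**
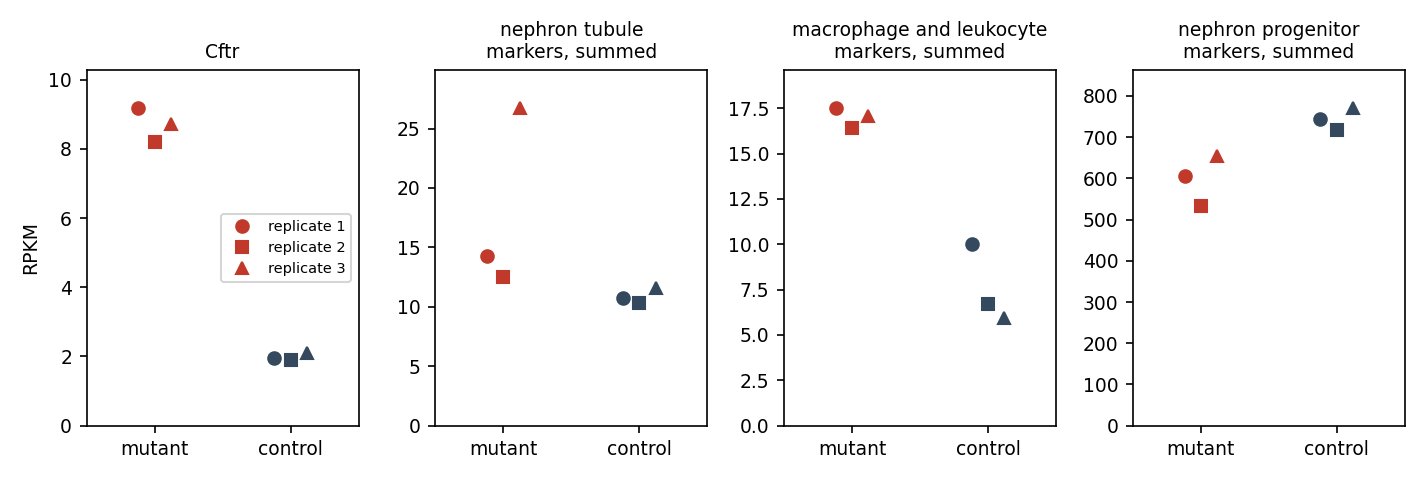
Level in RPKM of Cftr and summed RPKM of nephron tubule, macrophage and leukocyte, and nephron progenitor markers in each mutant (red, left) and control (dark, right) library; marker shapes stand for replicates and every axis starts at 0. Cftr and the macrophage sum are even over the mutants, the tubule sum is highest in mutant replicate 3 at 26.7 RPKM, and the progenitor sum is lower in all mutants.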

How the data were processed

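Sorted progenitors of 3 mutant and 3 control pools were sequenced as paired reads from cDNA made with an Ovation kit, per the labels' protocols. The authors deposited RPKM values for 27179 Entrez Gene entries; subread is named per the file headers, and mm10, FastQC and limma per the submitters' processing notes. The sources used here give no counting tool, strand setting or annotation. Symbols were matched for 25275 entries. Depth, gene length and whole reads (within 0.1) were worked out from the grid of low values and recovered for all 13463 tested genes; recovered reads summed to 98.42% to 98.6% of depth. At these depths 1 read on 1 kb is worth 0.0277 to 0.0362 RPKM. Reads carry no molecular identifiers, so intervals cover counting error only.

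The test was limma 3.58.1 (R 4.3.3), two-sided, applied to log2(RPKM + 0.5) of every gene averaging 0.5 RPKM or more, mutant minus control. Variances were moderated along a trend in mean level, and p-values were Benjamini-Hochberg adjusted over all tested genes with a threshold of 0.05. The code was tested on simulated data. With each library a pool, p-values measure the spread between pools. Alternatives were pseudocounts, filters, scalings, variance models, voom, a replicate block and leaving out each library. Seed letters and 31-base words were counted with Python 3.11.15 in GENCODE M21 transcripts (GRCm38, the sequence of mm10), and similar length means 0.8 to 1.25 times.

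Members and lists were chosen with earlier results of these data known. Named genes were the 9 members, all list genes that passed or else the 3 of lowest p, the 10 of highest r with Cftr, neighbours that passed, markers that passed, and Six2, Cited1, Cdh1 and Slc12a1. A gene that this rule names in the list of transcription factors is not reported here. Cited1 was at 15.5, 15.5 and 21.2 RPKM in mutants, against 21.1, 27.9 and 19.9 RPKM in controls.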

Additional observations from a re-analysis of the deposited data

How the results depend on the processing

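The log2 difference of Cftr ranged from 1.70 to 2.14 over 17 alternatives; it was 2.08 with a pseudocount of 0.1, 1.70 with a pseudocount of 1, 1.98 with median-of-ratios scaling, 1.97 with quantile normalization, 2.07 with depth without mitochondrial ribosomal RNA and 2.14 with voom on recovered reads. Without 1 library it was 1.85 to 1.93. Rescaling moved the median of all tested genes to -0.032 (median-of-ratios), -0.020 (quantile) or -0.013 (without mitochondrial ribosomal RNA, which took 32.23% to 38.24% of reads in mutants and 26.96% to 30.35% in controls). Over all members, 136 of 152 values under alternatives lay within 1 SD of replicates; small differences turned sign for Slc12a4 in 5 alternatives, Clcn3 in 4 and Ano1 in 1.

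Calls over the whole table were 178 higher and 244 lower. They were 65 and 78 with no filter on low values, 268 and 149 without mitochondrial ribosomal RNA, 262 and 171 with median-of-ratios scaling, 293 and 393 with voom, and 66 to 270 and 82 to 813 without 1 library. In both directions together, 422 genes were called, and 202, 148 or 243 without mutant replicate 1, 2 or 3, 210 without control replicate 1 and 1083 without control replicate 3. Calls in the 7 chloride lists, 5 higher and 1 lower, were 0 and 0 with no filter, and 3 fell with voom; without 1 library they were 2 to 5 and 0 to 3. Among the neighbours of Cftr, 1 higher and 1 lower became 0 and 0 with no filter. The lower call, Met, gave 0 with quantile normalization, without mitochondrial ribosomal RNA or with no mean-variance trend; without 1 library the counts were 0 to 2 and 0 to 1. The cause of these shifts was not tested.

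Replicate numbers do not pair the libraries by the labels. Same-numbered libraries deviated together with correlations of 0.053, 0.157 and 0.153, each the highest for its library, as a hint from the data. With the replicate number as a block 393 genes were called, against 422; Cftr stayed at 1.89, 0 neighbours were lower, and Dab2 did not pass (limma adjusted p 0.0562).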

Other observations

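The coding sequence of Cftr holds TTTGCACA, the 8 letters that pair with the miR-19 seed, 2 times. This feature was picked after the matches had been seen. Of 11573 tested genes with an annotated 3' UTR, 17 (0.147%) hold it 2 or more times before the 3' UTR, Cftr among them. Of 761 genes with a similar length before the 3' UTR, 3 do (0.394%). The 16 others had log2 differences between -0.42 and 0.43, with a median of -0.11, beside a median of -0.125 for all tested genes. None of these 16 passed in limma, where 3.13% of all tested genes did, and 1 had an unadjusted p under 0.05 (19.6% of all tested genes did). With voom 1 was called, where 2.18% of all tested genes were higher and 2.92% lower. With so few genes nothing is read from these counts, and an effect of the letters on Cftr was not tested.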
